A study of Homo sapiens with 17 samples.

Results

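Ubiquitin-specific protease (USP) mRNAs were taken as the protein-coding genes whose symbol is USP followed by a number and at most 1 letter, which gave 47 genes of 18869 in the table and of 13473 that are protein-coding. Ribo-STAMP, in which the cytidine deaminase APOBEC1 is fused to the ribosomal protein RPS2 so that mRNAs on ribosomes collect C-to-U edits, was used in HEK293T cells, a human embryonic kidney line. RPS2-STAMP cells and Control-STAMP cells, which express APOBEC1 without a ribosomal protein, were induced with 50 ng/ml doxycycline for 24 h and crosslinked in 0.1% formaldehyde. Each lysate was kept in part as Input and divided for immunoprecipitation (IP) of the nuclear poly(A)-binding protein PABPN or the cytoplasmic poly(A)-binding protein PABPC. The sources differ on this material: the study's text describes cytoplasmic extract for the Input and both IPs of the STAMP cells, whereas the sample labels describe sonicated cell pellets with no fractionation, so whether the values below cover whole cells or cytoplasm is not settled. The 17 samples comprised 9 of RPS2-STAMP, 3 from each fraction, and 8 of Control-STAMP, of which 3 were Input, 3 PABPN IP and 2 PABPC IP.

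The table gives 1 editing value per gene and fraction. A transcript level per fraction is given for 16905 of the 18869 genes. Both quantities are the authors' pooled values. Editing is given as EPKM, edits scaled to transcript length in kilobases and to the number of mapped reads, after subtraction of editing in the control. The transcript level is TPM, in which exonic and intronic TPM were added, so unspliced RNA counts towards it. No replicate values accompany either quantity in the table used here, so no difference below has a replicate check, and the number of reads behind each gene's value is not given there. In these bulk samples fewer cells with an mRNA and less of it per cell cannot be told apart. Of the markers of HEK293T cells, the neurofilament gene NEFL was at 26.9 TPM and the related INA at 24.1 TPM in the Input, with NEFM also above 5 TPM, while PAX2 at 0.797 and LHX1 at 0.913 TPM were low. Of 8 markers of other cell types, COL1A1 was in the table, at 1.90 TPM.

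USPs form the largest family of deubiquitinases, the enzymes that remove ubiquitin from proteins or take ubiquitin chains apart. Most are cysteine proteases whose catalytic domain is conserved while the flanking regions differ widely in size and direct each enzyme to a substrate or a compartment. Newly made mRNAs carry PABPN on the poly(A) tail in the nucleus, and PABPC takes its place on mRNAs in the cytoplasm.

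The conserved element of the family is the stretch of the coding sequence around the active-site cysteine codon. It was located in 44 of 46 members with a coding sequence in GENCODE and not in USP53 and USP54. The codon was TGC in 25 and TGT in 18 members. The search profile came from family stretches with a cysteine at this position, so these counts do not measure its conservation independently. USP39, a splicing factor long known as a family member without protease activity, had GAT at this position. The stretches of 5 members that lie at the ends of the distributions below are printed 5′ to 3′ on the coding strand (hg38, GENCODE), with the codon at the active-site position in capitals; they mark the same catalytic position while the coding sequences around them run from 1482 nt in USP14 to 10638 nt in USP34.
USP22: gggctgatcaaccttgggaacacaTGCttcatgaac
USP39: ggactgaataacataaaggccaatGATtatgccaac
USP14: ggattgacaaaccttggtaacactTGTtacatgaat
USP9X: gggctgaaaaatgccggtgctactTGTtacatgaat
USP34: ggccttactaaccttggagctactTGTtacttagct
The USP22 stretch lies at chr17:21018068-21018103, strand -, exon 5, and that of USP39 at chr2:85625644-85625679, strand +, exon 5. The USP14 stretch lies at chr18:180251-180286, strand +, exon 5, the USP9X stretch at chrX:41201128-41201163, strand +, exon 31, and the USP34 stretch at chr2:61265457-61265492, strand -, exon 43. All 5 are coding exon sequence, and the capitals mark codon 185 of 525 in USP22 but codon 1903 of 3546 in USP34.

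A limit of 5 TPM, to be met in each IP, was set for the comparisons, which 39 of 47 members and 9607 protein-coding genes met. USP49, with 6.50 TPM in the lower of its IPs, and USP40, with 6.80 TPM, were just inside this limit. USP47, at 4.44 TPM, and USP8, at 4.40 TPM, were just outside it, and USP15, USP27X, USP35, USP41, USP43 and USP51 were lower. For all 8 the lower IP was the PABPC IP, and USP41 and USP51 were under the limit in both.

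The first comparison set the level of USP mRNAs in the PABPN IP beside that in the PABPC IP, which is a division between the bound proteins and, given the unsettled source of the lysate, not one between nucleus and cytoplasm. Their median TPM was 13.5 in the Input, 44.6 in the PABPN IP and 25.3 in the PABPC IP, against 15.8, 38.4 and 28.9 over the protein-coding genes. USP mRNAs lay mostly on the PABPN side. On the scale of log2(TPM + 0.5), centred so that the median protein-coding gene is at 0, the median ratio of PABPC IP over PABPN IP was -0.79 over the 39 members. A ratio below -0.5 was called toward PABPN and one above 0.5 toward PABPC. By this rule 25 of 39 members (64.1%) were toward PABPN, against 31.1% of protein-coding genes. Toward PABPC were 2 of 39 (5.13%), against 29.9% of protein-coding genes, and 12 members lay between.

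**Figure D1:**
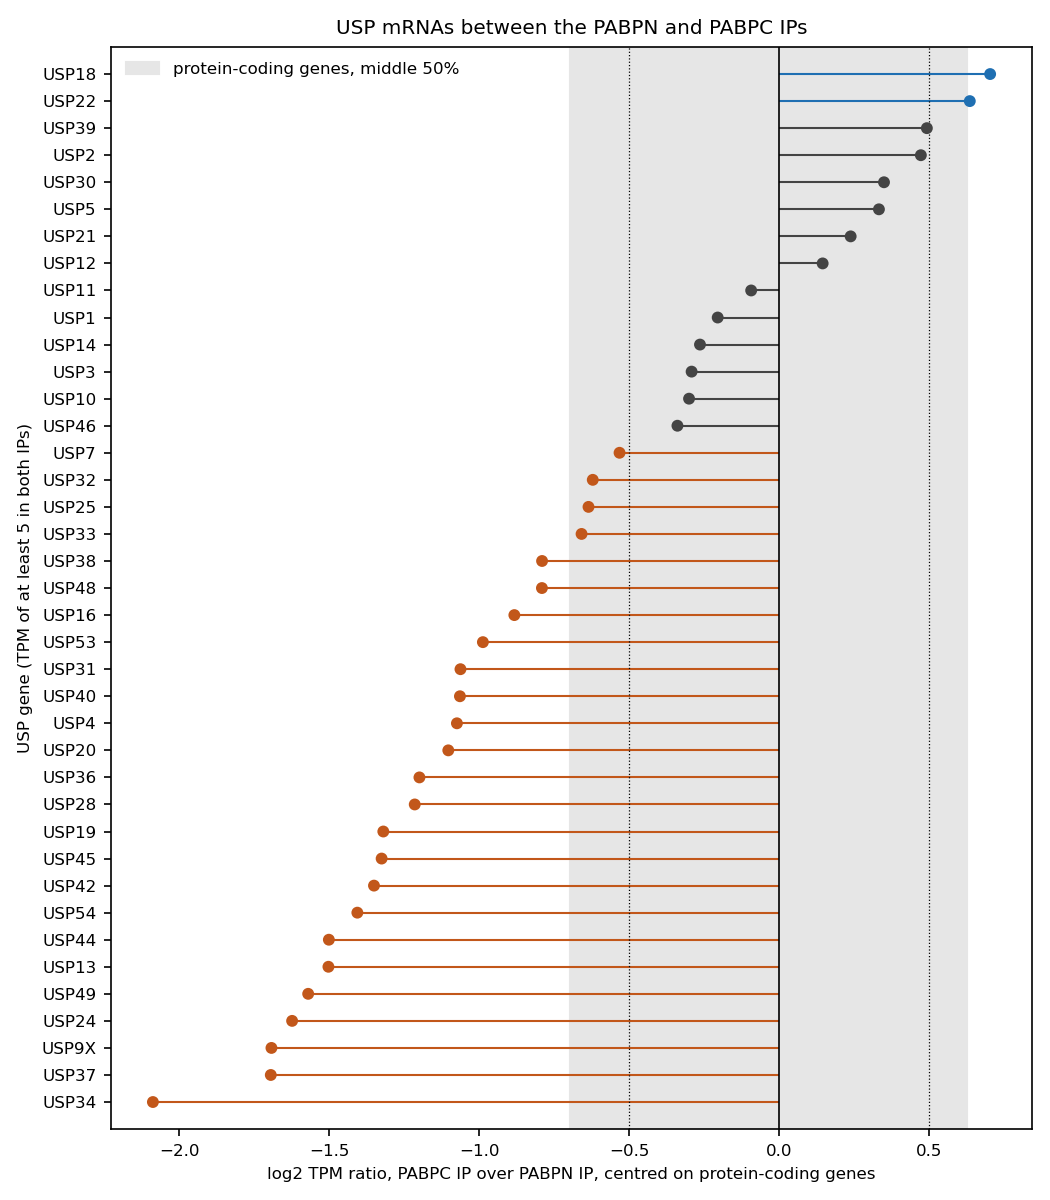
Centred log2 TPM ratio of PABPC IP over PABPN IP for each of the 39 USP genes, 1 pooled value per gene, with the middle 50% of protein-coding genes shaded and the -0.5 and 0.5 limits dotted. The points run from -2.09 for USP34 to 0.70 for USP18, with 31 of 39 below 0.

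The giant members stood at the PABPN end. USP34, which acts in Wnt signalling through axin and lies at chr2:61187463-61471087, had a TPM of 9.76, 52.2 and 10.4 in Input, PABPN IP and PABPC IP. USP9X, an X-linked enzyme with roles in cell adhesion and polarity at chrX:41085445-41236579, had 49.7, 154 and 41.3 TPM in the same order. USP24, the other very large member, had 22.8, 77.7 and 21.8 TPM. In all 3 the PABPC IP was close to or below the Input while the PABPN IP was at least 3.09 times the Input, and the centred ratios of PABPC over PABPN were -2.09, -1.69 and -1.62. USP37, a regulator of S-phase entry, was at -1.69 with 10.3, 44.6 and 11.7 TPM. USP49, which acts on histone H2B, was at -1.57 with 3.85, 23.2 and 6.50 TPM.

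At the PABPC end, USP18 and USP22 passed the limit. USP18, the interferon-induced protease that removes the ubiquitin-like ISG15, had 25.3, 43.3 and 62.0 TPM in Input, PABPN IP and PABPC IP, and a centred ratio of 0.70. USP22, the deubiquitinase subunit of the SAGA coactivator, lies at chr17:20999596-21043760 and was the most abundant member in every fraction, with 167, 285 and 388 TPM and a ratio of 0.64. These were also the members with the highest TPM ratio in the family without centring, but there only USP18 exceeded 0.5. USP39 at 0.49 (61.9, 102 and 127 TPM), USP2, which stabilises cyclin D1, at 0.47 (12.9, 23.9 and 29.1 TPM) and USP30 of the mitochondrial outer membrane at 0.35 (8.88, 16.2 and 18.2 TPM) came next and did not reach the limit. USP5, USP12 and USP21 were the remaining members above 0.

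Against the Input, both IPs gave higher TPM for the median protein-coding gene, by 0.95 for the PABPC IP and 1.10 for the PABPN IP on the log2 scale, and the ratios were centred on these shifts. The comparisons of each IP share the Input, so each is given on its own. In the PABPN IP the median member was at 0.51, with 21 of 39 above 0.5 (background 23.7%) and 1 below -0.5 (background 20.6%). That 1 member was USP5, which takes apart unanchored ubiquitin chains, with 40.2, 40.7 and 45.1 TPM in Input, PABPN IP and PABPC IP. In the PABPC IP the median member was at -0.39, with 15 of 39 below -0.5 (background 17.4%) and 0 above 0.5 (background 9.02%). With no TPM filter and the centre taken anew, 11 of 47 (23.4%) were below -0.5, near the background of 20.5%. With no filter and the main centre, 18 of 47 were below (background 27.7%). These splits rest on the centring: without it, 38 of 39 members were above 0.5 in the PABPN IP (background 84.1%) and 23 in the PABPC IP (background 80.2%), where the median was 0.56, and 0 were below -0.5 in either (background 0.583% and 0.854%).

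USP coding sequences are long, and longer members lay further toward PABPN. The median coding length was 2742 nt in the 39 members and 1320 nt in protein-coding genes, and the median number of exons was 19 against 9. Across the 39 members, coding length and the centred ratio of PABPC over PABPN had a Spearman rho of -0.66, and across 9601 protein-coding genes with a length the rho was -0.62. These are descriptions over genes, which are not independent replicates and share the libraries and their depth. In all, 45 such relations were computed for each set, of which a few are given.

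Classes of coding length, chosen after the data were seen, set the members beside genes of the same class. Lengths within a class were not matched. From the shortest class to the longest, median coding length was 1555.5, 2574, 3369 and 5052 nt in members. In protein-coding genes it was 1044, 2358, 3393 and 5349 nt. Under 2000 nt, the 10 members had a median ratio of 0.29 and the 7020 protein-coding genes 0.29. In this class 0 of the 10 members were toward PABPN, against 18.8% of protein-coding genes, and 2 of the 10 toward PABPC, against 39.6%. From 2000 to under 3000 nt, the 13 members were at -1.07 against -0.51, and 9 of 13 were toward PABPN (69.2% against 50.3%). In this class the median member lay lower than the median gene, and also lower than the -0.91 of protein-coding genes from 3000 to under 4000 nt. The members of the class had the greater median length, and whether length accounts for the gap was not tested. From 3000 to under 4000 nt the medians were -0.99 and -0.91, and from 4000 nt they were -1.41 and -1.42. All 16 members of these longer classes were toward PABPN, against 74.6% and 93.0% of protein-coding genes. Outside the class from 2000 to under 3000 nt, the median ratio of the members was close to that of the genes in their class. Under 2000 nt this was so although the members had the greater median length.

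**Figure D2:**
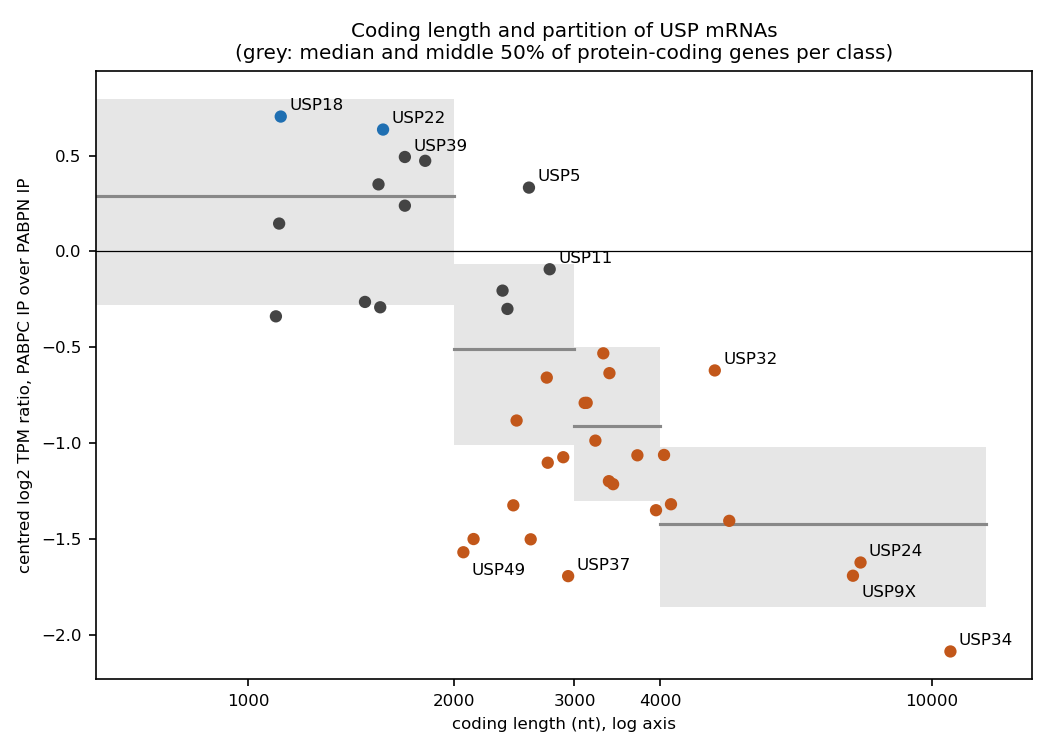
Coding length (log axis) against the centred log2 TPM ratio of PABPC IP over PABPN IP for the 39 USP genes, with the median and middle 50% of protein-coding genes in each of 4 length classes in grey. The members under 2000 nt lie around the class median. In the class from 2000 to under 3000 nt, USP37, USP49, USP13, USP44, USP45, USP20 and USP4 lie below its grey band.

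The second question was how strongly USP mRNAs were edited by the ribosome-bound deaminase in each fraction. Median EPKM over the 39 members was 0.0143 in the Input, 0.0498 in the PABPN IP and 0.0585 in the PABPC IP, against 0.0273, 0.0334 and 0.0501 over protein-coding genes. By the median, USP editing was thus lower than that of protein-coding genes in the Input and higher in both IPs. The mean went the other way in the PABPC IP, at 0.0695 for the members against 0.0719. In the Input the means were 0.0271 and 0.0634, and in the PABPN IP 0.0649 and 0.0520, the same direction as the medians. These EPKM values are not scaled to transcript level. EPKM was above 0 for 29 members in the Input (background 78.1%), 35 in the PABPN IP (background 72.9%) and 36 in the PABPC IP (background 82.6%). The 10 members listed at 0 in the Input were USP2, USP4, USP18, USP20, USP22, USP31, USP36, USP40, USP48 and USP53. USP2, USP32, USP37 and USP42 were listed at 0 in the PABPN IP, and USP1, USP7 and USP16 in the PABPC IP.

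Between the IPs, the EPKM of USP mRNAs split evenly. The PABPC value exceeded the PABPN value for 19 of 39 members (48.7%), against 56.4% of protein-coding genes, and was lower for 20 (background 37.4%). This split takes no account of transcript level, whose median over the members was 44.6 TPM with PABPN and 25.3 TPM with PABPC. Editing per transcript was not compared. The median EPKM difference of PABPC IP minus PABPN IP was -0.000325 over the members and 0.0108 over protein-coding genes. The sign for the members is not settled: it was 0.00252 with a TPM of at least 1, 0.00537 with no filter and 0.00454 as a mean. A difference of at least 2-fold on the log2(EPKM + 0.01) scale was found toward the PABPC IP in 11 members (28.2%, background 36.3%) and toward the PABPN IP in 9 (23.1%, background 21.1%). With a pseudocount of 0.1 these counts were 3 (background 865 of 9607) and 2 (background 3.71%).

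**Figure D3:**
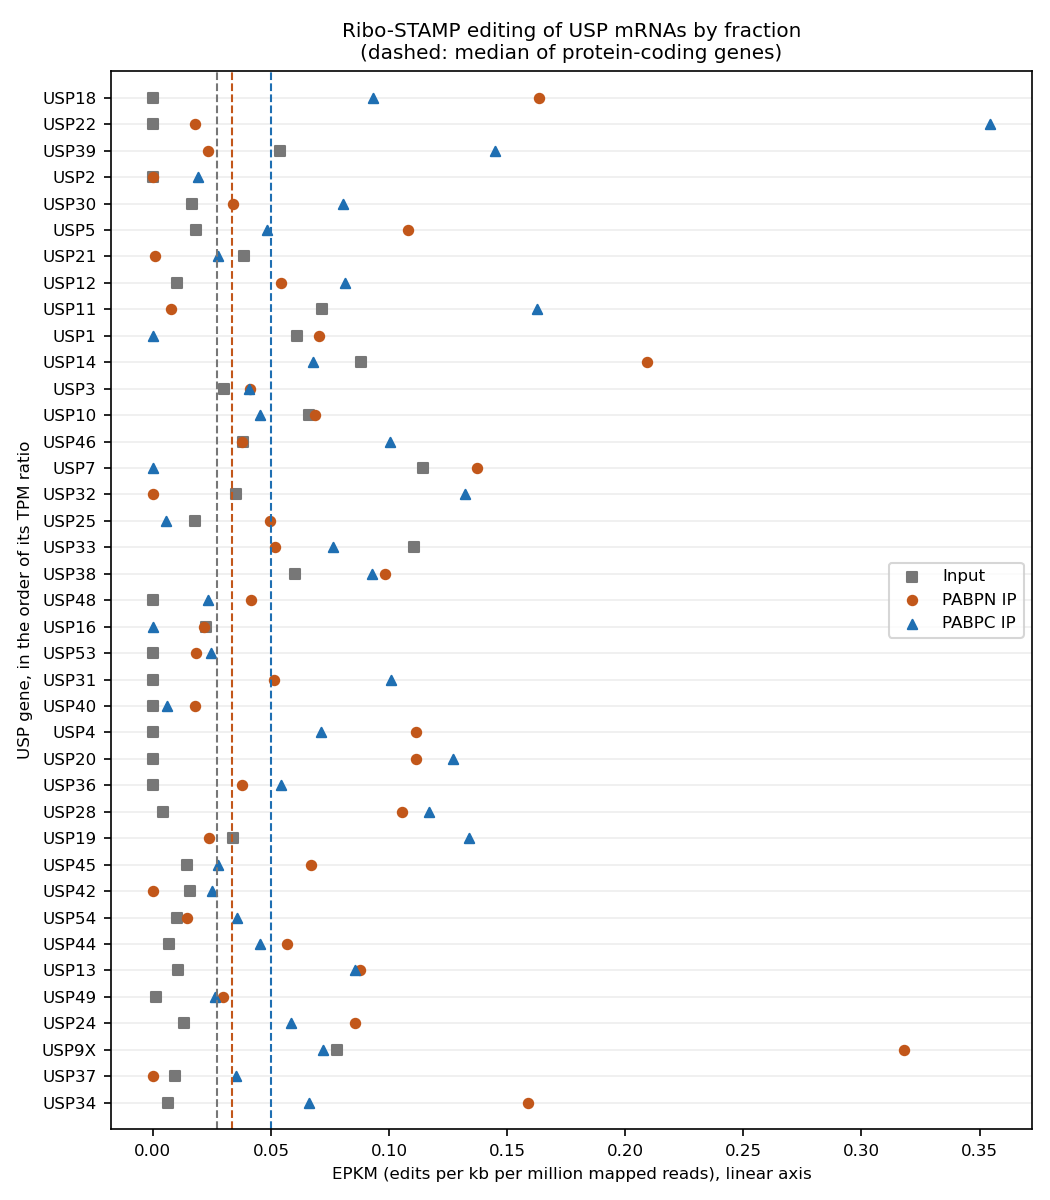
EPKM of the 39 USP genes in the Input, PABPN IP and PABPC IP, 1 pooled value per gene and fraction, ordered by TPM ratio, with dashed medians of protein-coding genes. Input values lie low for most genes, and the largest values are 0.355 for USP22 with PABPC and 0.318 for USP9X with PABPN.

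USP22 and USP9X stood at the opposite ends. For USP22 the EPKM was 0 in the Input, 0.0177 in the PABPN IP and 0.355 in the PABPC IP, so the most abundant USP mRNA was listed at 0 in the Input and had the highest editing of the family in the PABPC IP. For USP9X it was 0.0781 in the Input, 0.318 in the PABPN IP and 0.0721 in the PABPC IP, a PABPN value 4.42 times that in the PABPC IP. Both lay on the side of the IP in which their TPM ratio was also higher.

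Editing and transcript level did not always point to the same IP. USP18, with the highest TPM ratio toward PABPC, had an EPKM of 0 in the Input, 0.163 in the PABPN IP and 0.0931 in the PABPC IP. USP32, a membrane-anchored member of the Golgi and endosomes that was toward PABPN in TPM (10.3, 32.6 and 18.4 in Input, PABPN IP and PABPC IP), had 0.0351 in the Input, 0 in the PABPN IP and 0.132 in the PABPC IP. USP19, anchored in the endoplasmic reticulum, likewise lay at -1.32 in the TPM ratio (28.5, 82.4 and 28.7 TPM) but had an EPKM of 0.0339 in the Input, 0.0236 in the PABPN IP and 0.134 in the PABPC IP. Of the 25 members toward PABPN in TPM, 11 had the higher EPKM in the PABPC IP (44%), against 50.8% of the 2989 protein-coding genes on that side.

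**Figure D4:**
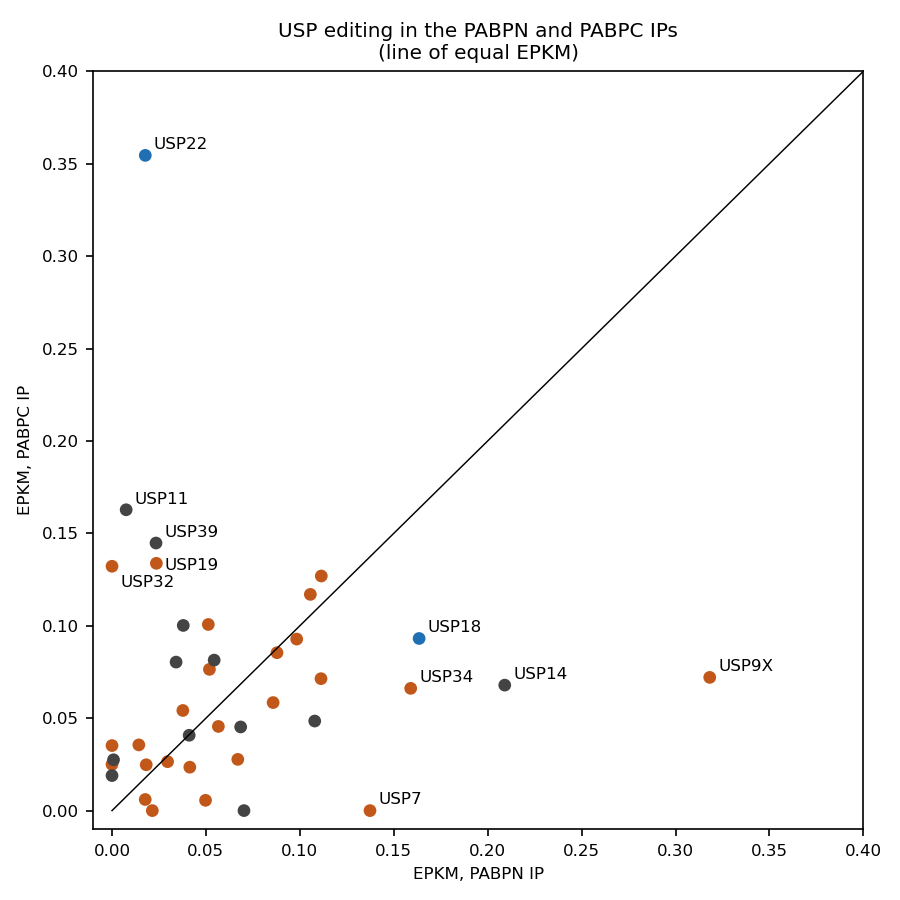
EPKM in the PABPN IP against EPKM in the PABPC IP for the 39 USP genes, coloured by TPM ratio (orange toward PABPN, blue toward PABPC, dark grey between), with the line of equal EPKM. There are 19 points above the line and 20 below it, and both colours of call occur on each side.

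Against the Input, editing of most USP mRNAs was higher in either IP. EPKM in the PABPC IP exceeded that in the Input for 30 of 39 members (background 57.3%), with a median difference of 0.0301 against 0.0104 over protein-coding genes, and by at least 2-fold for 25 (background 35.1%). EPKM in the PABPN IP exceeded that in the Input for 28 of 39 (background 45.2%), with a median difference of 0.0229 against 0, and by at least 2-fold for 21 (background 28.4%). At least 2-fold lower than the Input were 3 members in the PABPC IP (background 19.5%) and 4 in the PABPN IP (background 29.6%). With a pseudocount of 0.1, the members at least 2-fold higher than the Input were 4 for PABPC (background 6.21%) and 5 for PABPN (background 4.32%). The same Input values enter both comparisons. EPKM is not scaled to transcript level. Without centring, the median log2 TPM ratio of the members to the Input was 1.62 for PABPN and 0.56 for PABPC. Over protein-coding genes it was 1.10 and 0.95. Whether editing was higher beyond transcript level was not tested.

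Among the members that act on free chains and at the proteasome, all 3 had the higher EPKM in the PABPN IP (background 37.4%), USP13 by little. USP14, which trims chains on substrates at the proteasome, had 0.0881 in the Input, 0.209 in the PABPN IP and 0.0679 in the PABPC IP, with 30.1, 58.4 and 42.6 TPM in that order. USP5 had an EPKM of 0.0183 in the Input, 0.108 in the PABPN IP and 0.0485 in the PABPC IP. USP13, its paralogue, had 0.0105 in the Input, 0.0878 in the PABPN IP and 0.0854 in the PABPC IP. The pair differed in transcript partition, with centred TPM ratios of 0.33 for USP5 and -1.50 for USP13.

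In the DNA repair and p53 group, 2 of 4 members within the limit were toward PABPN in TPM (background 31.1%). USP7, which deubiquitinates MDM2 and p53, had the highest Input editing of the family: its EPKM was 0.114 in the Input, 0.137 in the PABPN IP and 0 in the PABPC IP, and its TPM was 25.4, 46.3 and 27.9 in the same order. USP1, which acts on FANCD2 and PCNA, had an EPKM of 0.0610 in the Input, 0.0703 in the PABPN IP and 0 in the PABPC IP and a TPM ratio of -0.20. Both were thus listed at 0 in the PABPC IP, where their TPM was 27.9 and 142. USP10, a p53 deubiquitinase that binds G3BP1, had an EPKM of 0.0661 in the Input, 0.0685 in the PABPN IP and 0.0453 in the PABPC IP and a ratio of -0.30. USP28, a stabiliser of MYC, had 0.00435 in the Input, 0.106 in the PABPN IP and 0.117 in the PABPC IP and a ratio of -1.21, the member of the group with the higher EPKM in the PABPC IP. USP47, which acts in base excision repair, was under the TPM limit, with an EPKM of 0.0140 in the Input, 0.0426 in the PABPN IP and 0.0215 in the PABPC IP and 4.46, 14.2 and 4.44 TPM.

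The histone and chromatin group held 7 members within the limit, of which 4 were toward PABPN (background 31.1%) and 1, USP22, toward PABPC (background 29.9%). USP3, USP44 and USP49 are paralogues that act on histones H2A or H2B, and their centred ratios were -0.29, -1.50 and -1.57. Their EPKM in the PABPN and PABPC IPs was 0.0411 and 0.0408 for USP3, 0.0566 and 0.0455 for USP44, and 0.0296 and 0.0265 for USP49, with 0.00132 in the Input for the last. USP44 and USP49 thus had similar ratios, USP3 lay closer to 0, and the EPKM of each was similar in the IPs. USP16, an H2A deubiquitinase, was at -0.88, and its paralogue USP45 at -1.32. USP36 of the nucleolus was at -1.20, and its paralogue USP42 at -1.35. USP21 was at 0.24, with an EPKM of 0.0384 in the Input, 0.000805 in the PABPN IP and 0.0275 in the PABPC IP. USP27X and USP51, X-linked relatives of USP22, were under the TPM limit, at 3.74 and 1.95 TPM in the PABPC IP.

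All 5 members of the organelle and membrane group within the limit had the higher EPKM in the PABPC IP (background 56.4%), while 4 of the 5 were toward PABPN in TPM (background 31.1%). For USP33, which acts on membrane receptors and had the second Input value of the family, its EPKM was 0.111 in the Input, 0.0519 in the PABPN IP and 0.0764 in the PABPC IP, and its TPM was 20.4, 53.5 and 29.5 in the same order. For its paralogue USP20, its EPKM was 0 in the Input, 0.111 in the PABPN IP and 0.127 in the PABPC IP, and its TPM was 7.22, 26.3 and 10.4 in the same order. Both paralogues were toward PABPN, at -0.66 and -1.10. For USP30, the EPKM was 0.0164 in the Input, 0.0341 in the PABPN IP and 0.0803 in the PABPC IP. USP8, which acts on receptors at endosomes with the ESCRT machinery, was under the TPM limit: its EPKM was 0.00752 in the Input, 0 in the PABPN IP and 0.0138 in the PABPC IP, and its TPM was 3.07, 12.6 and 4.40 in the same order.

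Of the members linked to splicing, USP39 had an EPKM of 0.0536 in the Input, 0.0234 in the PABPN IP and 0.145 in the PABPC IP. USP4, which is brought to the spliceosome by SART3, had 0 in the Input, 0.111 in the PABPN IP and 0.0714 in the PABPC IP and a TPM ratio of -1.07. Its paralogue USP11, linked to BRCA2, was among the most different between the IPs: its EPKM was 0.0716 in the Input, 0.00753 in the PABPN IP and 0.163 in the PABPC IP, and its TPM was 31.1, 49.4 and 40.5 in the same order. USP15, the other close paralogue, was under the TPM limit, with 4.25 TPM and an EPKM of 0.0168 in the PABPC IP. Neither USP4 nor USP15 was above 0 EPKM in the Input.

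In the interferon group, USP25 was at -0.64 with an EPKM of 0.0177 in the Input, 0.0498 in the PABPN IP and 0.00556 in the PABPC IP, and its paralogue USP28, described above, was also toward PABPN. USP41 is a near-identical copy of part of USP18 on the same chromosome, and reads could be split between them, so both are uncertain. USP41 had 0.112, 0.418 and 0.322 TPM. The giant members had the higher EPKM in the PABPN IP in 3 of 3 cases (background 37.4%), with 0.00631 in the Input, 0.159 in the PABPN IP and 0.0661 in the PABPC IP for USP34 and 0.0133 in the Input, 0.0858 in the PABPN IP and 0.0585 in the PABPC IP for USP24.

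Among members without a group here, USP12 and USP46, paralogues that are activated by WDR48, were at 0.15 and -0.34 in the TPM ratio. Their EPKM was 0.0101 in the Input, 0.0544 in the PABPN IP and 0.0814 in the PABPC IP for USP12, and 0.0380 in the Input, 0.0379 in the PABPN IP and 0.100 in the PABPC IP for USP46. The highest editing of both was thus in the PABPC IP. USP31 was at -1.06: its EPKM was 0 in the Input, 0.0513 in the PABPN IP and 0.101 in the PABPC IP, and its TPM was 9.38, 40.7 and 16.8 in the same order. Its paralogue USP43 was under the limit, with 3.26 TPM in the PABPC IP. USP38 was at -0.79, with an EPKM of 0.0602 in the Input, 0.0983 in the PABPN IP and 0.0928 in the PABPC IP. Its paralogue USP35 was under the limit, with 2.29, 20.7 and 3.89 TPM, and its ratio of -2.08 was close to that of USP34. USP53 and USP54 were at -0.99 and -1.41, USP48 at -0.79 and USP40 at -1.06. For USP40, its EPKM was 0 in the Input, 0.0177 in the PABPN IP and 0.00602 in the PABPC IP, and its TPM was 3.76, 16.9 and 6.80 in the same order. For USP37, the EPKM was 0.00916 in the Input, 0 in the PABPN IP and 0.0352 in the PABPC IP. USP2 had 0 in the Input, 0 in the PABPN IP and 0.0190 in the PABPC IP. The paralogues USP6, USP9Y, USP26 and USP29 were not analysed here.

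Deubiquitinases of the OTU, UCH, Josephin, JAMM and MINDY families gave 31 genes in the table, of which 27 met the TPM limit, against which the USPs were set. Their median TPM ratio of PABPC over PABPN was 0.10, with 9 of 27 toward PABPN (33.3%, background 31.1%) and 8 toward PABPC (29.6%, background 29.9%). These pooled shares were near those of all protein-coding genes, but the families differed. Toward PABPN were 6 of 12 OTU, 2 of 3 MINDY, 1 of 5 JAMM, 0 of 4 UCH and 0 of 3 Josephin genes. Toward PABPC, in the same order, were 2, 0, 2, 3 and 1. Without centring the median of the 27 genes was -0.08, and their median coding length was 1083 nt. Among them, JOSD2 was highest in the EPKM difference between the IPs, from 0.00129 with PABPN to 0.319 with PABPC, and MYSM1 was lowest in the TPM ratio, at -2.56. The USP-fold proteins CYLD, USPL1 and PAN2, which bear other names, were all toward PABPN (background 31.1%), at -1.10, -1.75 and -3.02. Their coding lengths were 2868, 3276 and 3594 nt. Of protein-coding genes from 2000 to under 3000 nt, 50.3% were toward PABPN, and from 3000 to under 4000 nt 74.6%.

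Of 8 partner proteins of USPs, 1 was toward PABPN (background 31.1%) and 0 toward PABPC (background 29.9%). That 1 was SART3, at -0.74, while its partner USP4 was at -1.07. WDR48, the activator of USP1, USP12 and USP46, was at -0.19. ATXN7L3, which activates USP22 within SAGA, had an EPKM of 0 in the Input, 0.000603 in the PABPN IP and 0.105 in the PABPC IP, while ENY2, of the same SAGA module, had 0.0658 in the Input, 0.0775 in the PABPN IP and 0.0636 in the PABPC IP. RPS27A, which encodes ubiquitin fused to a ribosomal protein, was toward PABPC at 1.97. Of the ubiquitin-activating enzymes, UBA6 was toward PABPN at -0.87 and UBA1 was at -0.36.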

How the data were processed

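Total RNA of Input, PABPN IP and PABPC IP from 17 HEK293T samples was sequenced. Alignment by the authors was to hg38, with STAR, and counting was with featureCounts 2.0.2 (submitters' processing notes) on a custom annotation without overlapping regions and readthrough transcripts. The deposited EPKM is a background-subtracted signal that the authors pooled over replicates; how differences below 0 were treated is not given in the sources used here. The deposited TPM is the authors' average per fraction of exonic plus intronic TPM; which samples entered it is not given in the sources used here. TPM summed to 854272 in the Input, 975719 in the PABPN IP and 995724 in the PABPC IP. The table holds no counts.

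Differences were computed in Python 3.11.15 with pandas 2.3.3 over genes that reached 5 TPM in each IP, with pseudocounts of 0.01 EPKM and 0.5 TPM and a 2-fold or 0.5 log2 limit. TPM ratios were centred on the protein-coding median. The procedure was tested on simulated data, with results that are not given here. No test of significance was run, since the table used here holds pooled values only. Positions, coding lengths (used for protein lengths) and sequences came from the canonical transcripts of GENCODE release 44 on hg38, read with Biopython 1.88, while the authors' annotation was of another release, and figures were drawn with matplotlib 3.10.9. The active-site stretch was located by a profile of those of the family's own stretches that matched a motif with the cysteine. It was kept where its score led the next place by at least 5, a margin chosen after the scores were seen. Named were the 5 highest and 5 lowest members in the EPKM difference, the TPM ratio and Input EPKM (ties at 0 by symbol), those nearest the TPM limit, paralogues, and every other member at least once; SART3, UBA1, UBA6, WDR48, ATXN7L3, ENY2 and USP5 in the Input comparison were named after their values were seen. Members and lists were chosen with earlier results of these data known. Some genes of the lists are not reported here.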

Additional observations from a re-analysis of the deposited data

How the results depend on the processing

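No paired analysis was possible from the table used here, because its values are pooled and carry no replicate number, although the sample labels do. Leaving out each replicate was not run for the same reason. Of 110 values under other settings, 75 were counts, of which 49 kept within a factor of 1.5 of the main count. Of the other 35, medians, means and rho, 5 changed sign, namely the median TPM ratio of PABPC to Input and that of the other deubiquitinase families (-0.08) without centring, and the EPKM difference between the IPs under 3 settings. Shares of protein-coding genes under the same setting stand in brackets. With a limit of 1, 17 of 39 members (16.6%) were toward PABPN and 0 (12.3%) toward PABPC, and without centring 26 (37.2%) and 1 (22.7%). Lower filters change both the genes and the centre: with a TPM of at least 1, 30 of 46 (32.2%) were toward PABPN and 4 (30.5%) toward PABPC, and with no filter 28 of 47 (31.8%) and 6 (29.9%). With the main centre kept, an alternative added after the data were seen, they were 32 of 46 (36.5%) and 2 (25.9%), and 32 of 47 (37.7%) and 2 (23.9%). With a pseudocount of 0.1 EPKM, at least 2-fold higher and lower of 39 were 3 (865 of 9607) and 2 (3.71%) for PABPC against PABPN, 4 (6.21%) and 1 (4.26%) for PABPC against Input, and 5 (4.32%) and 0 (7.11%) for PABPN against Input. Over members above 0 in both fractions, of 32 at least 2-fold higher were 7 (27.7%) and lower 6 (17.5%) in PABPC against PABPN, of 26 higher 16 (30.2%) and lower 0 (14.4%) in PABPC against Input, and of 26 higher 12 (26.5%) and lower 2 (22.8%) in PABPN against Input. Without centring, the median TPM ratio to the Input was 0.56 in the PABPC IP, the opposite sign, with 23 of 39 above (80.2%) and 0 below (0.854%) the limit, and 1.62 in the PABPN IP, with 38 above (84.1%) and 0 below (0.583%); the construction of the setting gives this, as the median gene shift is added back. With a limit of 1, 2 of 39 were below in PABPC against Input (3.81%) and 4 above in PABPN against Input (7.97%). With a TPM of at least 1 or no filter and the centre taken anew, 2 of 46 and 2 of 47 were above the limit in PABPC against Input (11.6% and 14.1%) and 2 below it in PABPN against Input (21.3% and 21.7%); with the main centre, above were 0 (7.40% and 6.70%) and below 1 (18.6%) and 2 (2613 of 13076). With these filters and the centre taken anew, 14 of 46 (17.8%) and 11 of 47 (20.5%) were below the limit in PABPC against Input. With the main centre they were 17 (21.8%) and 18 (27.7%). The median EPKM difference between the IPs was 0.00252 with a TPM of at least 1, 0.00537 with no filter and 0.00454 as a mean, so its sign is not settled. Exonic length gave a rho of -0.67.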

Other observations

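Base content of the coding sequence was examined after the data were seen. Across the 39 USP members, the number of AC or TC dinucleotides per kb of coding sequence and the EPKM difference of PABPC IP minus PABPN IP had a Spearman rho of 0.57, whereas across 9601 protein-coding genes the rho was -0.01. With the percent of C in the coding sequence the values were 0.50 and 0.15. These are among 45 relations computed for each set, over genes that share libraries and depth.

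Transcript level and editing were related in each fraction, with a rho of TPM with EPKM over the members of 0.53 in the Input, 0.22 in the PABPN IP and 0.35 in the PABPC IP, against 0.53, 0.25 and 0.45 over protein-coding genes.

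The transcribed pseudogene USP32P3 was not among the members and had 0.459 TPM in the Input, 4.42 in the PABPN IP and 0.416 in the PABPC IP. Its TPM was thus highest in the PABPN IP. It is a copy of USP32, and the assignment of reads between them is uncertain.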
